A study of Mus musculus with 10 samples.

Results

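Tight-junction genes were followed across 5 sorted cell populations of the mouse mammary gland. The set holds 8 genes, which are the claudins Cldn1, Cldn3, Cldn4, Cldn7 and Cldn8, occludin (Ocln) and the zonula occludens genes Tjp1 and Tjp3. They were chosen by name, by matching Ensembl gene IDs to symbols of GENCODE M21 on GRCm38, and all 8 of 8 were found among the 49671 gene IDs counted in the series. All 8 passed the filter on low counts that left 19757 genes to be tested. RNA was sequenced from cells sorted by flow cytometry, with 2 libraries per population and 10 in all. Tomato hybrid cells (THC), Tomato luminal cells (TLC) and Tomato basal cells (TBC) had luminal cell ablation as their labelled treatment and were named for Tomato, a red fluorescent protein used to mark cells. Luminal cells (LC) and basal cells (BC) had no treatment named, and WT stood in the label of replicate 2 for both. The labels give no mouse line, age, promoter of the reporter or means of ablation, so every comparison of a Tomato population with LC or BC contrasts ablation and Tomato marking at once. Whether replicates came from different animals is not stated, so the p-values take in only the spread between these samples, which may be technical.

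Tight junctions close the space between neighbouring epithelial cells near their apical surface and so keep the contents of a duct apart from the tissue around it. Claudins span the membrane with 4 helices and form the paracellular barrier and its ion-selective pores, occludin is a further membrane protein of the strands, and the ZO scaffolds encoded by Tjp1 and Tjp3 tie the membrane proteins to actin. In the mammary gland the luminal cells, which line the duct, are known to carry the tight junctions, whereas basal myoepithelial cells lie beneath them against the basement membrane.

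Assigned counts per library ran from 2757773 in THC replicate 1 to 13685674 in LC replicate 2. The population labels were checked on 7 basal and 7 luminal marker genes. The summed basal markers stood at 4680 and 3897 CPM in THC, 1061 and 658 in TLC, 14420 and 10574 in TBC, 149 and 86.2 in LC and 8260 and 12665 in BC, where CPM is the usual depth-normalised count scaled with TMM factors. The summed luminal markers stood at 4804 and 3759 CPM in THC, 5306 and 4508 in TLC, 1232 and 806 in TBC, 12387 and 11144 in LC and 1502 and 1194 in BC. THC thus carried transcripts of both lineages, and in a bulk library fewer cells of a type and less RNA per cell cannot be told apart, nor can cells that hold both programmes from a mixture of cells. Summed endothelial and fibroblast markers were highest in THC. The 7 endothelial markers summed to 609.75 and 614 CPM in THC, 97.9 and 125 in TLC, 183 and 186 in TBC, 321 and 147 in LC and 422 and 107 in BC, with 7 of 7 highest in THC and none at 0 in any population. The 6 fibroblast markers summed to 837 and 1900 CPM in THC, 102 and 332 in TLC, 305 and 585 in TBC, 318 and 289.8 in LC and 292 and 239 in BC, with 4 of 6 highest in THC and none at 0. Immune markers stayed at or below 60.0 CPM in sum in every library, with 3 of 6 highest in THC, 2 in LC and 1 in BC. Pericyte markers summed to 365 and 306 CPM in THC, 263 and 380 in TLC, 121 and 113 in TBC, 310.0 and 282 in LC and 185 and 91.2 in BC. Of these 5 markers 2 were highest in THC and 1 each in TLC, TBC and BC, and none was at 0. Notch3 made up most of the sum in TLC (247 and 358 CPM) and LC (256.5 and 272), and had 141 and 155 CPM in THC. Rgs5 was highest in THC, at 179 and 110 CPM, against 9.82 and 15.5 in TLC and 43.6 and 6.75 in LC. It had 55.7 and 38.6 CPM in TBC and 103 and 17.4 in BC. The part of endothelial, fibroblast, immune or pericyte RNA in the results for THC below was not tested.

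Promoter sequences are shown for 5 of the genes because these differ in how they behaved across the populations. Cldn3, Cldn4 and Cldn7 were higher in LC, TLC and THC than in TBC and BC. Cldn1 was highest in TLC, and Tjp1 was called in none of the comparisons. RefSeq promoters of build GRCm38.p6, from 250 bases before to 50 after a start, were held for 7 of the 8 genes (not Cldn8), in 10 windows. The motifs searched on both strands were AACCGGTT and the wider AACCNGTT, which contains it, of Grainyhead factors, CAGGTG, an E-box that Snail and Zeb repressors bind, and GGGCGG, the GC box of Sp and Klf factors. Capitals mark the matches, on either strand.
Cldn1, chr16:26371790-26372089, minus strand: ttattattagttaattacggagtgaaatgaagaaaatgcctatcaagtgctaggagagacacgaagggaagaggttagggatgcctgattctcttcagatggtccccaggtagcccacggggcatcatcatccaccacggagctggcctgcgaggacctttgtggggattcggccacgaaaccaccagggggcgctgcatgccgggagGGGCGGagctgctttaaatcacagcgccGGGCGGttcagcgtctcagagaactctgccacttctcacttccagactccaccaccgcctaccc
Cldn3, chr5:134985964-134986263, plus strand: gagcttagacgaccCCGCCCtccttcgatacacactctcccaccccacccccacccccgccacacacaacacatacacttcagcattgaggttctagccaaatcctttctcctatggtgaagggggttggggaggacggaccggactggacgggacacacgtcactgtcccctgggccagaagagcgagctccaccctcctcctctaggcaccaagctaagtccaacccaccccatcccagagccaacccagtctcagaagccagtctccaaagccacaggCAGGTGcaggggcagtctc
Cldn4, chr5:134946885-134947184, minus strand: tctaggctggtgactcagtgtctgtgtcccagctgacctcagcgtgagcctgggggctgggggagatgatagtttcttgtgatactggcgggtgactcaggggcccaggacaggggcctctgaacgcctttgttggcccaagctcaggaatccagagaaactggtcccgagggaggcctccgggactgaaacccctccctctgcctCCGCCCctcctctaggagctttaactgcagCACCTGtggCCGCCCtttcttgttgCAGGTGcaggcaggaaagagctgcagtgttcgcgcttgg
Cldn7, chr11:69965171-69965470, plus strand: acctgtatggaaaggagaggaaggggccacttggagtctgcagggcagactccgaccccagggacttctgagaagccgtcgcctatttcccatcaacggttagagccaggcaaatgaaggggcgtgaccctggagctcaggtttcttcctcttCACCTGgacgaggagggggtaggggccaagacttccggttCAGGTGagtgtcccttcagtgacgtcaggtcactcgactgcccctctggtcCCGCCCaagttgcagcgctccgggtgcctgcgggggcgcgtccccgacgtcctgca
Tjp1, chr7:65371195-65371494, minus strand: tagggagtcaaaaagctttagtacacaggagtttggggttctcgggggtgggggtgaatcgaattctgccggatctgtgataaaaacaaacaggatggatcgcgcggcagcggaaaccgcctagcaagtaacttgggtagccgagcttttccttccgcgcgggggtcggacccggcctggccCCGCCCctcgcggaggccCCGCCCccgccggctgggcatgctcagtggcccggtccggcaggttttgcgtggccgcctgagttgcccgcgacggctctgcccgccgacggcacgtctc

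The E-box letters occurred in 7 of the 10 windows, which belong to Cldn3, Cldn4, Cldn7, Ocln and Tjp3, and in 20.2% of all 32851 promoter windows. In Cldn4 they lay at -14 and at 12 from the start, and in the Cldn7 window shown at -97 and -57. The other Cldn7 window, chr11:69964529-69964828, held no match to any motif searched. The GC box occurred in 7 of the 10 windows, with at least 1 in each gene but Tjp3, and in 35.7% of all windows. Neither Grainyhead motif was found in any window of the 7 genes, and AACCGGTT occurred in 0.146% and AACCNGTT in 2.09% of all windows. A match is a string of letters and not a bound site.

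The claudins Cldn3, Cldn4 and Cldn7 are barrier-forming claudins of many simple epithelia. Cldn3 (ENSMUSG00000070473, chr5:134986214-134987472) and Cldn4 (ENSMUSG00000047501, chr5:134945119-134946934) are single-exon neighbours 39279 bases apart, and Cldn7 is ENSMUSG00000018569 (chr11:69964779-69967885). Cldn3 had 62.4 and 81.9 CPM in THC, 129 and 143 in TLC, 14.5 and 17.2 in TBC, 192.5 and 172 in LC and 19.2 and 14.9 in BC. Cldn7 had 59.3 and 54.1 CPM in THC, 148 and 106 in TLC, 8.999 and 8.503 in TBC, 140.5 and 121.5 in LC and 12.9 and 11.2 in BC. For both genes the luminal populations were high, the basal populations low, and THC stood apart from each in both libraries. LC and TLC overlapped for Cldn7 but not for Cldn3. An antisense transcript, Wbscr25, overlaps the exon of Cldn3 on the other strand, and as the strand setting of the counting is not given in the sources used here, reads of the shared exon could not be told apart. Wbscr25 itself had 658 counts over the 10 libraries.

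Cldn4 had the highest mean per length of the 8 genes in THC, TLC and LC. It had 344 and 149.9 CPM in THC, 379 and 261 in TLC, 51.0 and 19.3 in TBC, 1323 and 613 in LC and 89.4 and 41.2 in BC. Replicate 1 was higher than replicate 2 in all 5 populations, which held for 8.45% of the tested genes. The same was so for Cldn7, whereas Tjp3 was lower in replicate 1 in every population. LC lay above all other libraries, and THC and TLC overlapped.

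Cldn1 (ENSMUSG00000022512, chr16:26356642-26371841), a claudin best known from the barrier of the skin, had a different order. It had 31.8 and 43.5 CPM in THC, 119 and 75.2 in TLC, 9.63 and 10.2 in TBC, 39.2 and 24.8 in LC and 10.2 and 7.23 in BC. Both TLC libraries stood above all others, THC and LC overlapped, and TBC and BC overlapped at the bottom. Cldn8 (ENSMUSG00000050520, chr16:88560828-88563183), a barrier claudin described in kidney tubules, was high in LC alone. It had 18.2 and 26.5 CPM in THC, 16.7 and 18.6 in TLC, 3.47 and 5.57 in TBC, 61.8 and 55.4 in LC and 6.86 and 6.12 in BC. THC and TLC overlapped, well below LC and above both basal populations.

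Ocln (ENSMUSG00000021638, chr13:100496507-100552718) encodes occludin, which shapes the strands that claudins build. It had 61.2 and 67.4 CPM in THC, 144 and 119 in TLC, 15.2 and 9.31 in TBC, 239 and 164 in LC and 26.1 and 14.5 in BC. The order was LC, TLC, THC, BC and TBC, and all but the last of these neighbours were separate. Tjp3 (ENSMUSG00000034917, chr10:81273207-81291581), which encodes the scaffold ZO-3 of epithelial cells, had 23.2 and 52.6 CPM in THC, 66.3 and 101 in TLC, 5.53 and 6.96 in TBC, 87.2 and 93.1 in LC and 8.82 and 9.78 in BC. LC and TLC overlapped, THC lay lower with its libraries far apart, and the basal populations were lowest. Exons of Tjp3 overlap those of Apba3 on the other strand, which had 2023 counts in all. Tjp1 (ENSMUSG00000030516, chr7:65296165-65527781), which encodes the scaffold ZO-1 of tight and adherens junctions in many cell types, had 307 and 337.5 CPM in THC, 408 and 351 in TLC, 336 and 244 in TBC, 514 and 356 in LC and 311 and 304 in BC. Its lowest library was in TBC and its highest in LC, and of its neighbours in order only TLC and THC did not overlap.

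**Figure D1:**
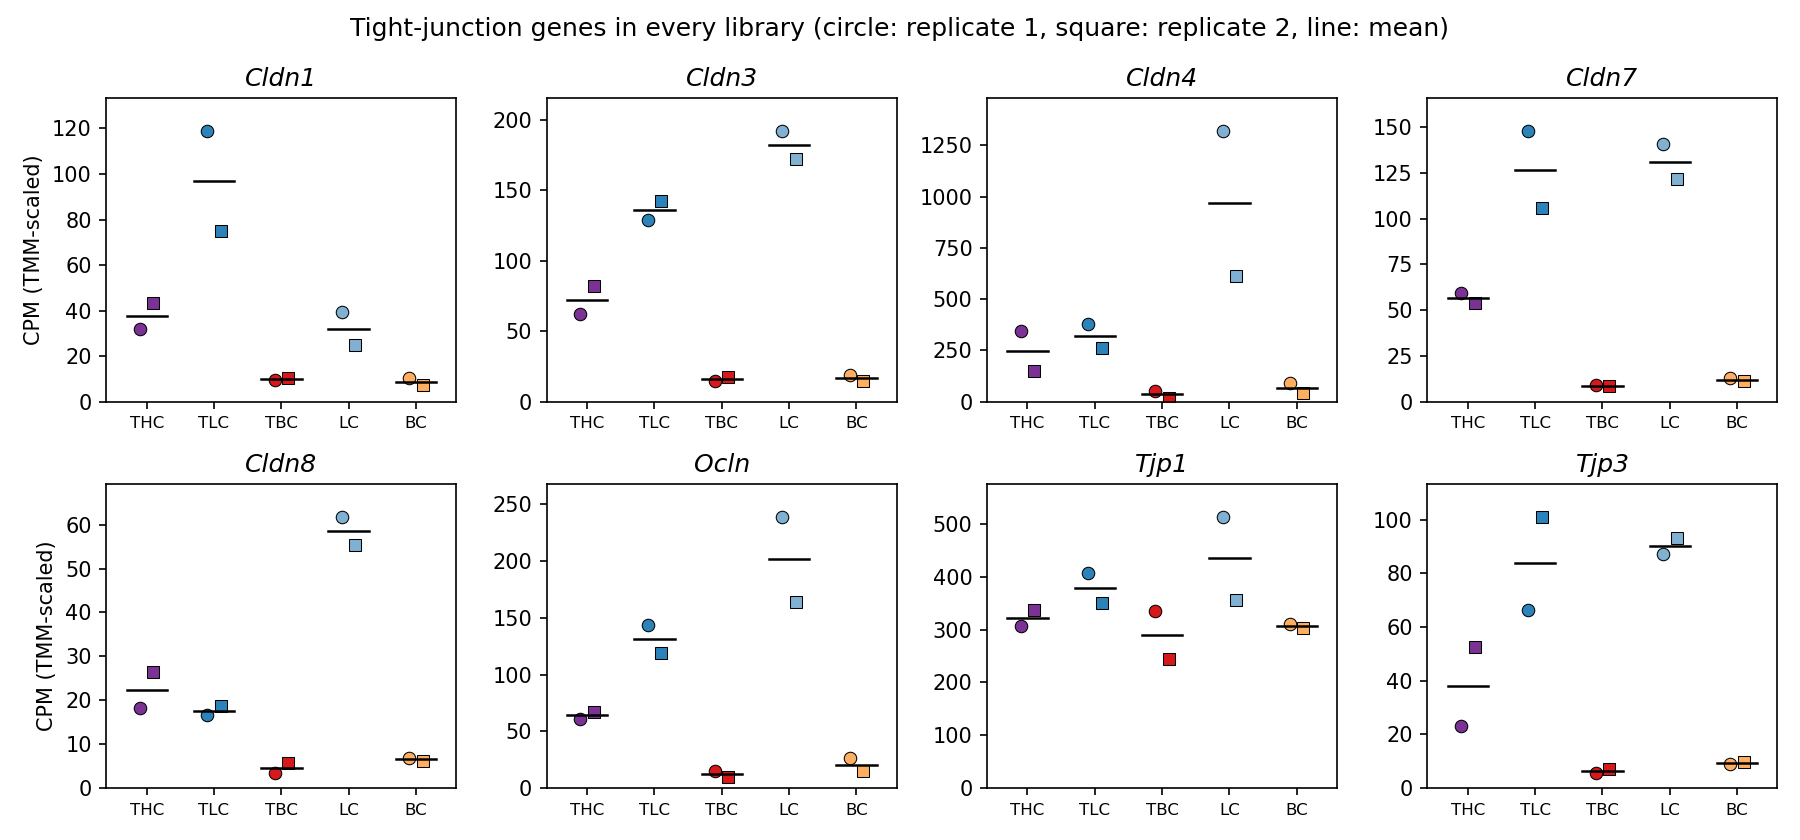
CPM (TMM-scaled counts, linear axis from 0) of the 8 genes in THC, TLC, TBC, LC and BC, with a point for each library and a line at the mean of the 2 libraries of a population. Cldn4 reaches 1323 CPM in LC replicate 1, Cldn1 is highest in TLC at 119 and 75.2 CPM, and Tjp1 lies between 244 and 514 CPM in all 10 libraries.

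Levels of different genes were compared per kilobase of annotated exon. On that scale Cldn4 stood at 136 ± 75.6 CPM per kb in THC, 176 ± 46.1 in TLC, 19.4 ± 12.4 in TBC, 533 ± 276 in LC and 35.9 ± 18.8 in BC (SD, n = 2 each). Cldn3 followed at 57.3 ± 10.99 in THC, 108 ± 7.57 in TLC, 12.6 ± 1.52 in TBC, 145 ± 11.3 in LC and 13.5 ± 2.43 in BC (SD, n = 2 each, CPM per kb). Tjp1 had 41.3 ± 2.75 in THC, 48.6 ± 5.21 in TLC, 37.2 ± 8.29 in TBC, 55.7 ± 14.3 in LC and 39.4 ± 0.659 in BC (SD, n = 2 each, CPM per kb). The mean of Tjp1 was thus above those of Cldn3 and Cldn4 in TBC and BC, within the replicate spread of Cldn4 in BC, and below both in LC. Over the 25 claudin genes in the files, claudin transcripts summed to 272 ± 65.2 CPM per kb in THC, 403 ± 58.4 in TLC, 58.7 ± 12.5 in TBC, 824 ± 301.5 in LC and 84.1 ± 30.6 in BC (SD, n = 2 each). The 5 claudins of the set made up 89.1% and 86.5% of that sum in THC, 94.3% and 92.4% in TLC, 70.6% and 66.4% in TBC, 95.2% and 92.6% in LC and 72.0% and 71.0% in BC. Cldn12 held 15.0% and 15.3% of the sum in TBC and 6.23% and 13.98% in BC, against 0.615% and 0.975% in LC. Its own level differed far less, at 42.9 and 32.2 CPM in TBC, 27.8 and 36.9 in BC and 27.0 and 25.2 in LC. In edgeR's test of LC against BC it did not pass (-0.32 ± 0.27 SE, adjusted p = 0.453). Cldn5, the claudin of endothelial cells, held 3.69% and 2.99% in THC, 0.139% and 0.160% in TLC, 4.29% and 5.40% in TBC, 0.170% and 0.0664% in LC and 9.43% and 3.66% in BC.

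**Figure D2:**
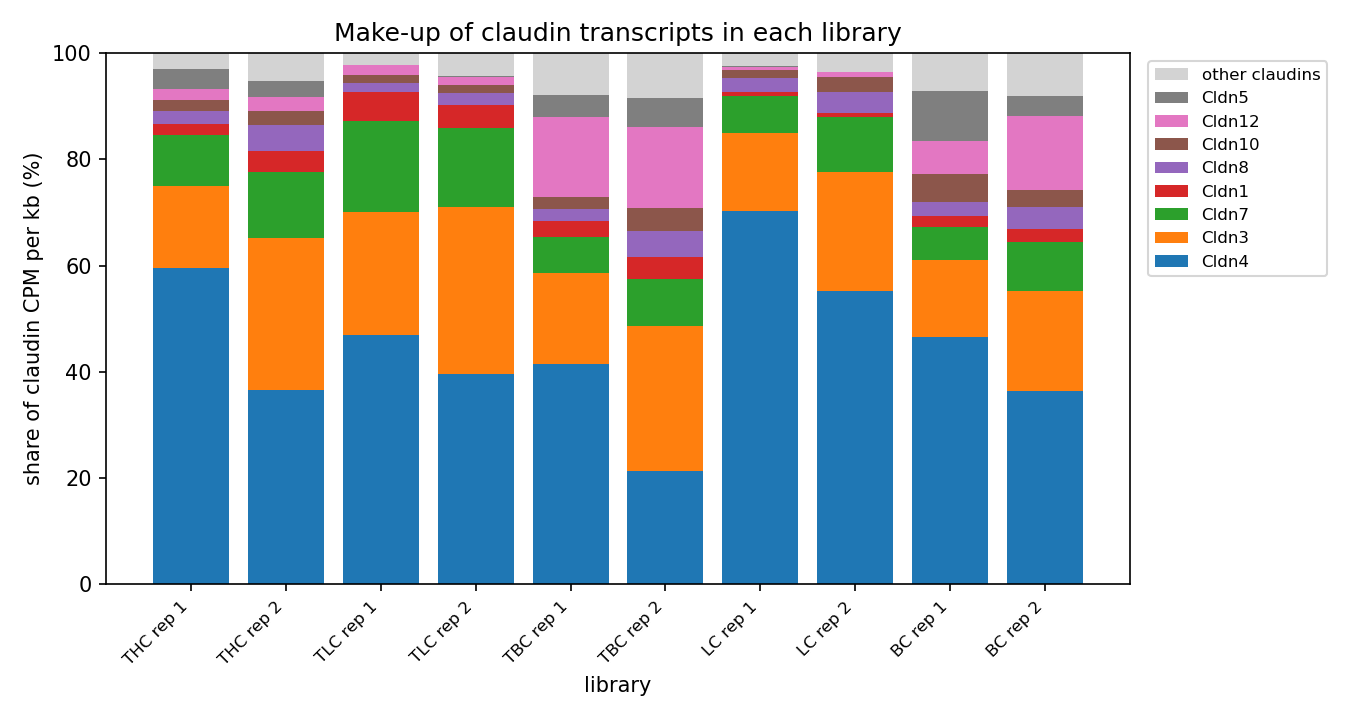
Share of each claudin in the summed claudin CPM per kilobase of exon (linear axis, 0 to 100%), in each library of THC, TLC, TBC, LC and BC. Cldn4, Cldn3 and Cldn7 fill most of every bar, Cldn12 takes 15.0% and 15.3% in TBC, and Cldn4 takes 70.2% in LC replicate 1 but 21.3% in TBC replicate 2.

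LC and BC were compared to see which genes of the set separate the lineages without ablation. In LC 7 of 8 genes were higher, by 3.72-fold for Cldn1 to 14.9-fold for Cldn4, and none was lower. Of all tested genes, 11.5% were called higher and 12.5% lower in this comparison. The log2 fold changes were 3.45 ± 0.24 (SE) for Cldn7, 3.43 ± 0.24 for Cldn3, 3.90 ± 0.68 for Cldn4, 3.18 ± 0.31 for Cldn8, 1.90 ± 0.33 for Cldn1, 3.33 ± 0.34 for Ocln and 3.27 ± 0.37 for Tjp3. In edgeR's quasi-likelihood test, adjusted for all tested genes by the Benjamini-Hochberg method, adjusted p was 4.14e-06 for Cldn3 and Cldn7, 4.15e-05 for Ocln and 0.00301 for Cldn4, the largest of the 7. Tjp1 did not pass, at 0.50 ± 0.25 (adjusted p = 0.185). The median over the 8 genes was 3.30 log2 units, against -0.04 over all genes. The count of 7 held when each library in turn was left out.

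TLC and TBC ask the same question among Tomato cells after ablation, with no library shared with LC against BC. In TLC 7 of 8 genes were higher, by 3.80-fold for Cldn8 to 14.5-fold for Cldn7, where 5.59% of all tested genes were called higher. The log2 fold changes were 3.86 ± 0.24 (SE) for Cldn7, 3.09 ± 0.23 for Cldn3, 3.20 ± 0.66 for Cldn4, 1.93 ± 0.30 for Cldn8, 3.29 ± 0.34 for Cldn1, 3.45 ± 0.34 for Ocln and 3.73 ± 0.38 for Tjp3. With the same test adjusted p was 2.50e-05 for Cldn7 and at most 0.0121, for Cldn4. Tjp1 stood at 0.39 ± 0.25 (adjusted p = 0.378). The median of the 8 was 3.24, against 0.03 over all genes. Cldn4 lost its call without TLC replicate 1 (2.90, adjusted p = 0.0734), without TLC replicate 2 (3.40, adjusted p = 0.0563) and without TBC replicate 2 (2.62, adjusted p = 0.0847).

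THC were set against TBC and TLC, the other populations with ablation, to place hybrid cells between the lineages. Against TBC 6 of 8 genes rose in THC, by 3.83-fold for Cldn1 to 6.47-fold for Cldn7, where 2.57% of all tested genes were called higher. The log2 fold changes were 2.69 ± 0.24 (SE) for Cldn7, 2.19 ± 0.23 for Cldn3, 2.29 ± 0.30 for Cldn8, 1.94 ± 0.33 for Cldn1, 2.42 ± 0.33 for Ocln and 2.62 ± 0.37 for Tjp3, with adjusted p between 4.82e-04 for Cldn7 and 0.00863 for Cldn1 in edgeR's test. Cldn4 had the largest fold of the set, at 2.82 ± 0.65, and just missed the threshold (adjusted p = 0.0528), and it was called by DESeq2 (adjusted p = 0.00526), by limma-voom (adjusted p = 0.0347) and under a filter of 5 CPM in 2 libraries (adjusted p = 0.0334). Tjp1 stood at 0.15 ± 0.25 (adjusted p = 0.82). The median of the 8 was 2.36, against 0.03 over all genes. Cldn1 lost its call without TBC replicate 1 (1.88, adjusted p = 0.0747), without TBC replicate 2 (1.91, adjusted p = 0.0737) and without THC replicate 2 (1.63, adjusted p = 0.0827).

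Against TLC, Cldn7 fell in THC, by 1.16 ± 0.22 (SE) on the log2 scale (adjusted p = 0.0237), and 0.0911% of all tested genes were called lower. In all, 6 of the 8 genes were lower in both THC libraries than in both TLC libraries, as were 16.5% of all tested genes. Those that did not pass edgeR's test were Cldn1 (-1.35 ± 0.31, adjusted p = 0.0566), Cldn3 (-0.90 ± 0.22, adjusted p = 0.0642), Ocln (-1.03 ± 0.31, adjusted p = 0.149), Tjp3 (-1.10 ± 0.33, adjusted p = 0.151) and Tjp1 (-0.23 ± 0.25, adjusted p = 0.859). Cldn4 (-0.38 ± 0.61, adjusted p = 0.922) and Cldn8 (0.37 ± 0.28, adjusted p = 0.746) overlapped between the populations. The call of Cldn7 was lost without either THC library or either TLC library (-1.40 to -0.90, adjusted p = 0.0936 to 0.178) and in a fit of THC and TLC alone (-1.17, adjusted p = 0.0529). Cldn1 was called without BC replicate 1 (-1.35, adjusted p = 0.05 after rounding, just under the threshold), BC replicate 2 (-1.35, adjusted p = 0.0499), LC replicate 1 (-1.36, adjusted p = 0.0252) or LC replicate 2 (-1.39, adjusted p = 0.0234). None of these last libraries is part of the contrast. Without a filter on low counts Cldn1 (-1.36, adjusted p = 0.000172), Cldn3 (-0.92, adjusted p = 0.0115), Ocln (-1.05, adjusted p = 0.00226) and Tjp3 (-1.12, adjusted p = 0.00258) were called too, and DESeq2 called Cldn1 (adjusted p = 0.00452), Cldn3 (adjusted p = 0.0155) and Tjp3 (adjusted p = 0.0469) beside Cldn7.

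The place of THC was also expressed as a share of the distance from the TBC mean to the TLC mean in CPM. On that linear scale the 2 THC libraries lay at 38.8% and 55.1% for Cldn3, 42.8% and 38.4% for Cldn7, 41.0% and 46.2% for Ocln and 21.95% and 59.8% for Tjp3. Cldn1 lay lower, at 25.1% and 38.6%. On this scale most THC libraries were nearer to TBC than to TLC for these genes, but on the log2 scale the THC mean lay at 58.4% for Cldn1, 66.8% for Tjp3 and 70.1% to 70.2% for Cldn3, Cldn7 and Ocln, nearer to TLC. On the linear scale Cldn4 lay at 109% and 40.3%, with THC replicate 1 close to TLC, and Cldn8 lay at 105% and 168%, above TLC. Against the midpoint of TLC and TBC on the log2 scale, Cldn8 was higher in THC by 1.33 ± 0.24 (SE), with adjusted p = 0.0489 in edgeR's test, where 0.38% of all tested genes were called higher. The call was lost without LC replicate 2 and without any of the 6 Tomato libraries (0.96 to 1.55, adjusted p = 0.055 to 0.46), and it was lost too with RLE factors (adjusted p = 0.0603), with upper-quartile factors (adjusted p = 0.0784) and with a filter of 5 CPM in 2 libraries (adjusted p = 0.0641). The other 7 genes did not pass, at -0.04 for Tjp1 to 1.22 for Cldn4.

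Against the untreated populations THC lay between BC and LC for most of the set. In all, 6 of 8 genes rose in THC over BC, where 5% of all tested genes were called higher, with Cldn7 at 2.23 ± 0.23 (SE), Cldn3 at 2.10 ± 0.23, Cldn1 at 2.15 ± 0.33, Cldn8 at 1.82 ± 0.30, Ocln at 1.69 ± 0.32 and Tjp3 at 2.06 ± 0.36 log2 units. Adjusted p in edgeR's test ran from 8.55e-04 for Cldn7 to 0.0119 for Ocln. Cldn4 (1.92 ± 0.63, adjusted p = 0.101) and Tjp1 (0.07 ± 0.25, adjusted p = 0.90) did not pass. Without BC replicate 2 the count was 2, as Cldn1, Cldn8, Ocln and Tjp3 were lost (1.31 to 2.15, adjusted p = 0.0556 to 0.0941). Without THC replicate 2, which leaves the shallowest library alone, it was 3, as Cldn8, Ocln and Tjp3 were lost (1.26 to 1.56, adjusted p = 0.0647 to 0.0805).

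In THC 5 of 8 genes were lower than in LC, where 4% of all tested genes were called lower. They fell by 1.33 ± 0.22 (SE) for Cldn3, 1.21 ± 0.22 for Cldn7, 1.36 ± 0.28 for Cldn8, 1.65 ± 0.31 for Ocln and 1.21 ± 0.33 for Tjp3 on the log2 scale, with adjusted p from 0.00264 for Cldn3 to 0.036 for Tjp3 in edgeR's test. Cldn4 (-1.98 ± 0.62, adjusted p = 0.0734), Tjp1 (-0.43 ± 0.25, adjusted p = 0.308) and Cldn1 (0.25 ± 0.31, adjusted p = 0.658) did not pass. Tjp3 lost its call without THC replicate 1 (-0.78, adjusted p = 0.202), without LC replicate 1 (-1.26, adjusted p = 0.0786) and without LC replicate 2 (-1.20, adjusted p = 0.123), and in a fit of THC and LC alone (-1.19, adjusted p = 0.0907). Cldn8 lost its call without THC replicate 1 (-1.14, adjusted p = 0.0823), so the count there was 3. Cldn4 was called by DESeq2 (adjusted p = 0.0494).

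TLC and LC were compared to see how luminal cells with the Tomato mark after ablation differ from untreated luminal cells, and here 2 claudins moved in opposite directions. Cldn1 rose in TLC by 1.60 ± 0.31 (SE) log2 units, or 3.04-fold (adjusted p = 0.00949), where 4.46% of all tested genes were called higher. Cldn8 fell by 1.73 ± 0.28 on the log2 scale (adjusted p = 0.00401), where 3.77% were called lower. Both calls come from edgeR's quasi-likelihood test, and in both genes the TLC libraries did not overlap those of LC. In all, 1 of the 8 genes (Cldn1) was higher in both TLC libraries than in both LC libraries, as were 24.3% of all tested genes, and 4 (Cldn3, Cldn4, Cldn8 and Ocln) were lower in both, as were 24.9%. The others did not pass: Cldn3 stood at -0.43 ± 0.21 (adjusted p = 0.273), Cldn4 at -1.60 ± 0.62 (adjusted p = 0.162), Cldn7 at -0.05 ± 0.21 (adjusted p = 0.932), Ocln at -0.62 ± 0.30 (adjusted p = 0.266), Tjp1 at -0.20 ± 0.25 (adjusted p = 0.725) and Tjp3 at -0.10 ± 0.33 (adjusted p = 0.903). Without TLC replicate 1 neither was called (Cldn1 1.23, adjusted p = 0.0939, and Cldn8 -1.66, adjusted p = 0.05 after rounding, just over the threshold), and without LC replicate 2 Cldn1 was lost (1.30, adjusted p = 0.0679). TLC also carried more of the basal markers than LC, at 1061 and 658 CPM against 149 and 86.2 in sum. Of the 7 luminal markers 2 were called lower in TLC than in LC by edgeR and 0 higher. These were Esr1 (90.2 and 112 CPM in TLC, 400 and 511 in LC) and Prlr (718 and 781 in TLC, 4247 and 4683 in LC). The part of either shift in the differences of Cldn1 and Cldn8 was not tested.

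In basal cells no gene of the set passed. TBC against BC gave 0 of 8 calls with edgeR, DESeq2 and limma-voom, and 1 at an unadjusted p under 0.05, which was Ocln (-0.73 ± 0.33 SE, adjusted p = 0.57). The share of all tested genes called by edgeR in this comparison was 0%, and 8.73% had an unadjusted p under 0.05. Cldn7 (-0.46 ± 0.24), Cldn8 (-0.48 ± 0.31) and Tjp3 (-0.56 ± 0.37) were lower in both TBC libraries than in both BC libraries, which was so for 21.4% of all tested genes, and Cldn1 (0.21 ± 0.33), Cldn3 (-0.08 ± 0.23), Cldn4 (-0.90 ± 0.62) and Tjp1 (-0.09 ± 0.25) overlapped. The difference between the lineages was tested as an interaction, (TLC minus LC) minus (TBC minus BC). None of the 8 passed in edgeR, DESeq2 or limma-voom, where edgeR called 0.911% of all tested genes either way. An unadjusted p under 0.05 was reached by 2 of the 8 and by 10.6% of all tested genes. These 2 were Cldn1 at 1.39 ± 0.45 (adjusted p = 0.24) and Cldn8 at -1.25 ± 0.42 (adjusted p = 0.253), so the changes in luminal cells were not shown to differ from those in basal cells.

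**Figure D3:**
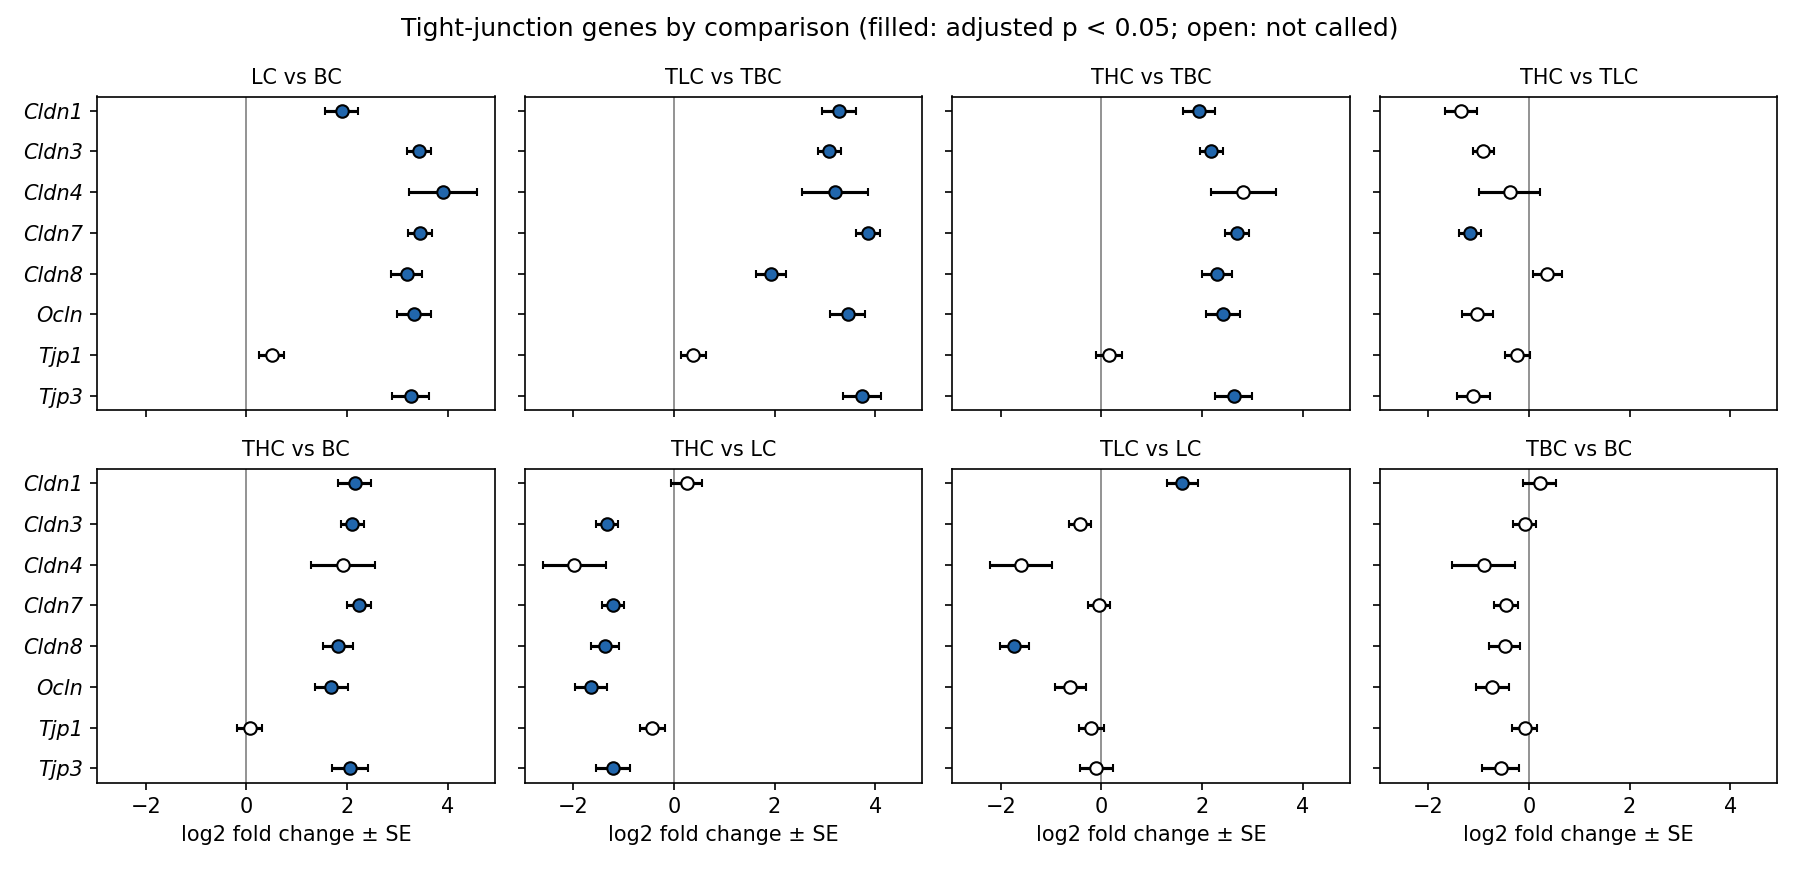
Log2 fold changes (linear axis) of the 8 genes with their standard errors in the 8 comparisons, filled where adjusted p was under 0.05. The filled points cover 7 genes in LC vs BC and in TLC vs TBC, Tjp1 is open in every panel, and in TLC vs LC only Cldn1 (1.60) and Cldn8 (-1.73) are filled.

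Across the 10 libraries, which share the grouping into lineages, the members varied together to different degrees. Pearson's r of log2 CPM was 0.99 between Cldn3 and Cldn7, 0.98 between Ocln and each of Cldn3 and Cldn7, and 0.64 between Cldn1 and Cldn8. With Tjp1 the others had r from 0.59 (Cldn1) to 0.83 (Cldn4). Among 10690 genes with a mean of at least 10 CPM, the gene most like Ocln (r = 0.991) and Cldn7 (r = 0.99) was Marveld2, which encodes tricellulin, the occludin relative at the corners where 3 cells meet. The genes most like Cldn4 were Krt18 (r = 0.996), a luminal keratin, Vps37b (r = 0.987) and Prss22 (r = 0.986). Those most like Cldn3 were Plcg2 (r = 0.994) and Pold3 (r = 0.993), and those most like Tjp3 were Aldh1a3 (r = 0.996) and Cobl (r = 0.991). Cldn8 was followed most closely by Tmem30b (r = 0.989), Esrrg (r = 0.988) and Ccbe1 (r = 0.985), and Cldn1 by Kcnn4 (r = 0.975), Sulf2 (r = 0.975) and Notch1 (r = 0.966). For Tjp1 the closest were Supt6 (r = 0.95), Notch2 (r = 0.947) and Ppp3ca (r = 0.944).

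Other genes of the junction were read from lists written by role. Of 19 further claudins 10 had enough counts to be tested. In LC against BC 3 of these were higher, namely Cldn6 (4.34), Cldn23 (2.67) and Cldn10 (2.15), and Cldn5 was lower (-2.51), in log2 units. Cldn5 had 14.1 and 3.23 CPM in BC, where the endothelial markers summed to 422 and 107. In LC it had 2.49 and 0.574 CPM, where they summed to 321 and 147. The part of endothelial RNA in the Cldn5 difference was not tested. Cldn6, known from early embryonic epithelium, had 6.97 and 6.61 CPM in THC, 4.91 and 6.83 in TLC, 0.789 and 1.03 in TBC, 20.05 and 19.5 in LC and 0.588 and 1.19 in BC. It rose in THC over TBC (2.84, adjusted p = 0.00552) and over BC (2.80, adjusted p = 0.00526), and it was lower in TLC than in LC (-1.74, adjusted p = 0.0131), all by edgeR's test. Cldn5 rose in THC over LC (3.11, adjusted p = 0.0249), a comparison in which the summed endothelial markers were also higher. Against TLC, Cldn5 in THC stood at 3.90 (adjusted p = 0.0505).

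Of 5 tricellular and MARVEL genes 3 were higher in LC than in BC, namely Marveld2 (3.39), Marveld3 (2.40) and Lsr (1.15), where Lsr encodes angulin-1, which brings tricellulin to cell corners. The same 3 genes were called higher in TLC against TBC (3.49, 2.89 and 0.81 in that order), and Marveld2 (2.43) and Marveld3 (2.11) rose in THC over TBC. Marveld2 had 38.0 and 33.5 CPM in THC, 82.8 and 65.3 in TLC, 8.84 and 4.69 in TBC, 104 and 70.1 in LC and 9.995 and 6.89 in BC. Ildr1 and Ildr2 did not pass in any of these 3 comparisons. Of 5 junctional adhesion molecules none passed edgeR's test in any of the 8 pairwise comparisons. An unadjusted p under 0.05 was reached by 4 in THC against LC (26.5% of all tested genes), 2 in THC against TLC (12.1%), 2 in TLC against TBC (25.9%), 1 in LC against BC (34.8%) and 0 in the others. DESeq2 called 2 in THC against LC (15.1% of all tested genes), 2 in THC against TLC (3.96%), 1 in TLC against TBC (14.7%) and 1 in LC against BC (24.3%). Limma-voom called 2 in THC against LC (14% of all tested genes) and 1 in LC against BC (25.4%).

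Among 15 plaque scaffolds, which link the membrane proteins to the cytoskeleton, genes moved both ways, with 4 higher and 3 lower in LC than in BC (median 0.07). Cgn, which encodes cingulin, was higher (3.59), while Mpdz (-2.97), Amotl1 (-2.15) and Magi2 (-2.92) were lower. Mpdz, a scaffold of many PDZ domains, had 75.5 and 85.4 CPM in THC, 40.2 and 37.5 in TLC, 157 and 173.5 in TBC, 24.0 and 16.0 in LC and 134 and 178 in BC, with both basal populations above THC and THC above TLC and LC. In TLC against TBC 5 were higher and 3 lower, where 8.02% of all tested genes were called lower. In THC against TBC Cgn was higher (2.51) and Mpdz (-1.03) and Amotl1 (-1.09) were lower, as were 1.14% of all tested genes. Of 11 genes of apical and basolateral polarity 6 were higher and 1 lower in LC than in BC. Crb3, the epithelial Crumbs protein, was higher (2.63), as were Prkcz (2.67) and the basolateral Llgl2 (1.92). Pard6g was lower (-2.91) while its relative Pard6b was higher (1.72). In TLC against LC Pard6g rose (1.36, adjusted p = 0.00631), with 32.3 and 25.3 CPM in TLC against 10.1 and 12.1 in LC.

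Of 7 tested transcription factors that favour the epithelial state 4 were higher in LC than in BC, namely Grhl1 (3.15), Ehf (3.07), Elf3 (1.10) and Ovol1 (1.25), and none was lower. Grhl2, a known activator of claudin genes, did not pass in any comparison, with 91.8 and 108 CPM in THC, 125 and 136 in TLC, 97.4 and 97.1 in TBC, 122 and 116 in LC and 103 and 105 in BC. Grhl3 had 5.81 and 4.18 CPM in THC, 16.7 and 13.0 in TLC, 0.789 and 0.806 in TBC, 2.06 and 2.08 in LC and 1.57 and 0.765 in BC, and it was higher in TLC than in LC (2.83, adjusted p = 0.0028). Elf3, an Ets factor of epithelia, was lower in TLC than in LC (-1.18, adjusted p = 0.00434), with 63.7 and 70.4 CPM in TLC against 161 and 142 in LC. In TBC against BC it stood at -1.24, not called by edgeR (adjusted p = 0.19), with 31.7 and 28.3 CPM in TBC against 64.5 and 76.95 in BC. The interaction for Elf3 was 0.06 (adjusted p = 0.972). Ehf, a further Ets factor, had 113 and 217 CPM in THC, 570 and 530.2 in TLC, 17.8 and 24.3 in TBC, 299.9 and 258 in LC and 42.9 and 24.2 in BC, and it was lower in THC than in TLC (-1.73, adjusted p = 0.0312). Of 6 repressors of junction genes Snai2 alone was called in LC against BC, at -6.26 (adjusted p = 6.57e-06). Snai2, which encodes Slug, had 66.6 and 75.0 CPM in THC, 17.4 and 8.74 in TLC, 183 and 161 in TBC, 2.17 and 0.933 in LC and 91.7 and 136 in BC. It was higher in TLC than in LC (3.10, adjusted p = 0.00228) and higher in THC than in TLC (2.47, adjusted p = 0.0105), where 1.52% of all tested genes were called higher. Zeb2 (2.89) and Twist1 (3.17) rose in THC over LC beside Snai2 (5.57), where 8.91% of all tested genes were called higher. Twist1 had few counts, with 4 and 26 in THC and 2 and 2 in LC. Zeb2 and Twist1 are also transcribed in endothelial cells and fibroblasts, and the part of such cells in these differences was not tested. All 4 of the junction proteases and inhibitors were higher in LC than in BC, with St14 (matriptase) at 1.93, Prss8 (prostasin) at 1.59, and their inhibitors Spint1 at 2.56 and Spint2 at 0.92. All 4 were lower in THC than in LC (-1.30 to -0.82).

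**Figure D4:**
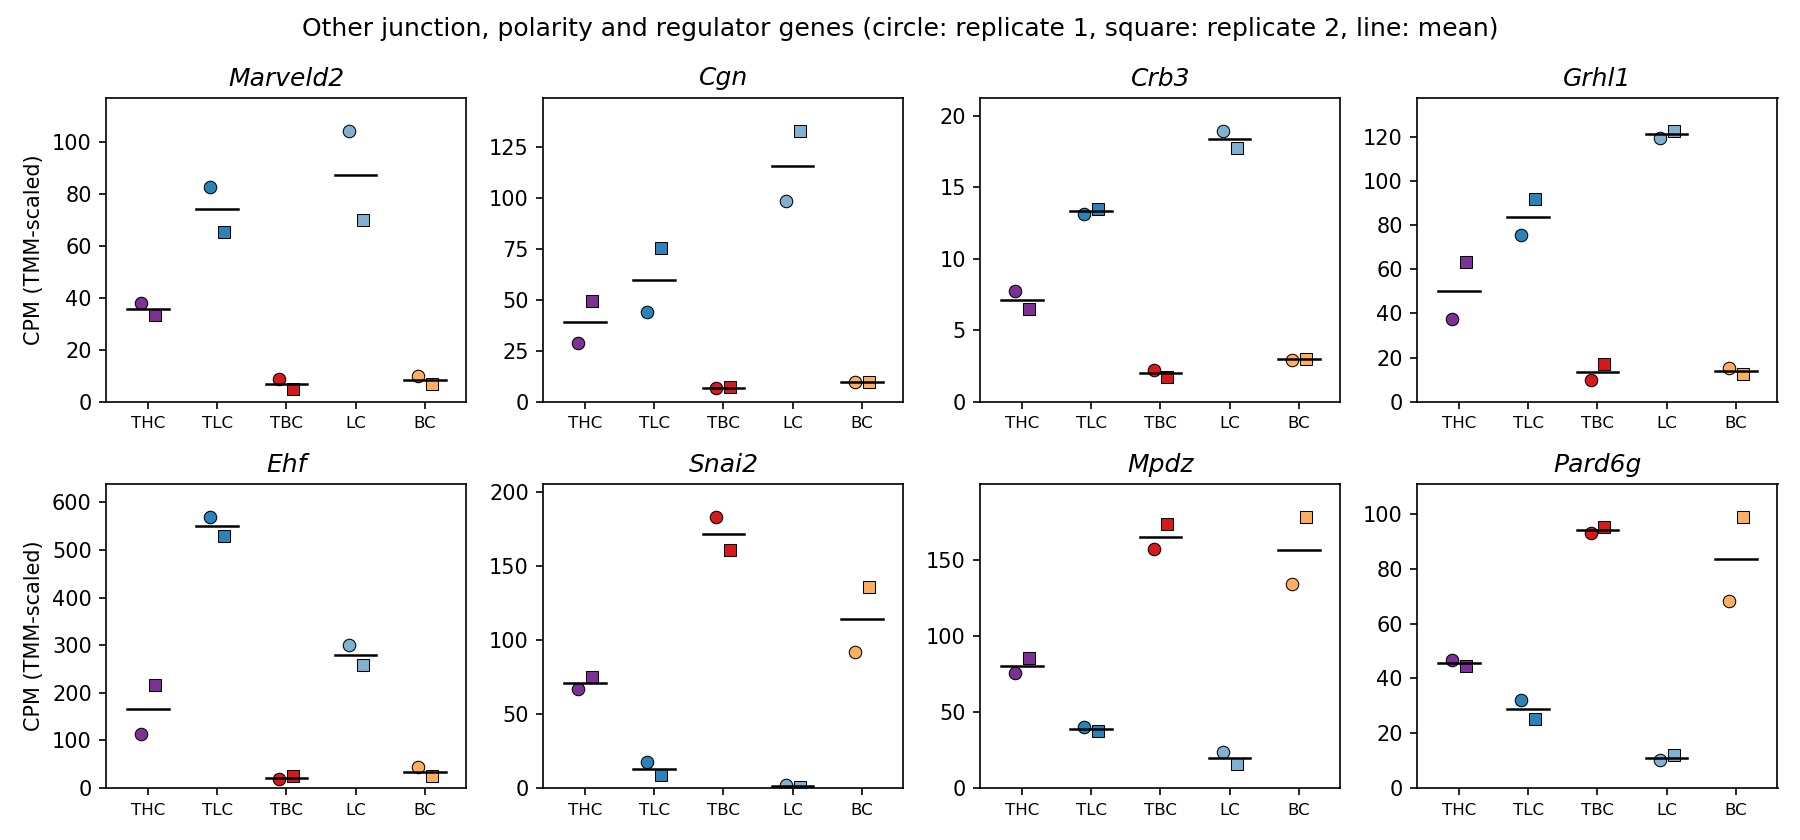
CPM (TMM-scaled counts, linear axis from 0) of 8 further genes of junctions, polarity and their regulation in THC, TLC, TBC, LC and BC, with a point for each library and a line at the mean of 2. Marveld2, Cgn, Crb3 and Grhl1 are lowest in the basal populations, Ehf is highest in TLC at 570 and 530.2 CPM, and Snai2, Mpdz and Pard6g are highest in TBC and BC.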

How the data were processed

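Each library is a deposited table of raw counts, 1 per Ensembl gene ID. The authors used STAR and HTSeq with GRCm38 (mm10), per the submitters' processing notes. The sources used here give no version, annotation release or strand setting. Per the labels' protocols, cells were sorted after antibody staining, the RNeasy Micro kit served to extract RNA, and libraries were made with the Ovation Solo system. Libraries were grouped by the cell type in their labels, with the libraries labelled WT grouped with BC or LC. Replicates were numbered in the order of the sample records. The numbers in the titles form a lower run for replicate 1 and a higher run for replicate 2 of every population. The labels do not say what these runs stand for, and the main fit held no term for them.

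The 5 HTSeq summary entries were removed. Shares were taken of the reads assigned to a gene, without a feature, ambiguous or not uniquely aligned. Unaligned reads and those of low alignment quality were left out. Of these reads, 12.6% to 30.8% had no feature, 2.71% to 3.48% were ambiguous and 14.6% to 43.0% had no unique alignment. The 43.0% was THC replicate 1, and the other libraries lay at 14.6% to 22.4%. THC replicate 1 also had the lowest share without a feature (12.6%) and the fewest genes detected (22948). IDs were matched to GENCODE M21, which named 49412 of 49671. In edgeR 4.0.16 (R 4.3.3), genes passing filterByExpr were scaled by TMM and tested by robust quasi-likelihood F-tests in a single model of all 10 libraries, with a mean for each population and 5 residual degrees of freedom. Calls required adjusted p under 0.05 (Benjamini-Hochberg, 19757 genes). Standard errors are the log2 fold change divided by the root of F, and log2 CPM use a prior count of 2. Lengths are unions of annotated exons. The 2 libraries of a population differed far beyond counting error, with chi-square over its degrees of freedom at 19.5 to 34.4. The depth of a library sets its precision: 3 counts equalled 0.202 to 1.16 CPM.

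The 8 genes and the lists were chosen with earlier results of these data known. The named genes were all 8, up to 4 called genes per list and comparison with the smallest adjusted p, and the 3 genes most correlated with each of the 8. A few genes that these rules or lists hold are not reported here. Ildr1, Ildr2, Grhl2, Cldn12, Pard6b in LC against BC and Cldn5 in THC against TLC were named outside that rule after their values were seen. Of the lists, Cldn9, Cldn13, Cldn14, Cldn16, Cldn17, Cldn18, Cldn20, Cldn24, Cdx2 and Hnf4a had too few counts to be tested, and Cldn25 was not analysed here. Alternatives were RLE and upper-quartile factors, DESeq2 1.42.0, limma-voom (limma 3.58.1), no filter, a filter of 5 CPM in 2 libraries, a term for the set of numbers in the titles, fits restricted to the compared populations, and omission of single libraries. The procedure was tested on simulated data with the same spread for all genes. Of 50 changes of 2-fold it recovered 8 in LC vs BC and 5 in TBC vs BC. Of 50 changes of 4-fold it recovered 40 and 43, and of 50 changes of 8-fold all 50 in both. In the simulation a change near 2-fold thus mostly went uncalled. With the data edgeR called 4742 genes in LC against BC, far more than were changed in the simulation, so its recovery does not carry over to that comparison. Some changes near 2-fold were called there by edgeR's test, as for Lsr (2.22-fold, adjusted p = 0.00231) and Elf3 (2.14-fold, adjusted p = 0.00158).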

Additional observations from a re-analysis of the deposited data

How the results depend on the processing

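Over 18 alternatives, 1379 of 1440 fold changes of the 8 genes kept their direction or, where not called, stayed uncalled, 36 lost their call, 25 gained one and 0 reversed, while 26 uncalled values took another sign. The counts of called members stayed at 7 for LC vs BC, 0 for TBC vs BC and 0 for the interaction under every alternative. The count for THC vs TLC, 1 with all libraries, was 5 without a filter, 4 with DESeq2 and 0 in a fit of these populations only. The count for THC against the midpoint of TLC and TBC, which rests on Cldn8, was 0 with RLE factors, with upper-quartile factors and with the filter of 5 CPM in 2 libraries. No replicate pairing is stated. With the set of title numbers as a term (a replicate block) THC vs TLC gave 5, with Cldn1, Cldn3, Ocln and Tjp3 beside Cldn7 (adjusted p = 0.0262 to 0.0335 for these 4), and the midpoint contrast 3. Cldn4 was then called in THC vs BC (1.91, adjusted p = 0.000488), TLC vs LC (-1.50, adjusted p = 0.001), THC vs LC (-1.99, adjusted p = 0.000119) and THC vs TBC (2.85, adjusted p = 4.4e-05). Over all genes the alternatives other than omission of single libraries, the block among them, called 275 to 1143 in THC vs TLC. In the midpoint contrast they called 22 to 709. The main fit called 318 and 75. Differences between the 2 libraries correlated across populations at -0.0124 to 0.421, over 0.1 in 8 of 10 pairs of populations, and the labels name no shared animal, batch or day, so the numbers were not taken as pairs. Leaving out 1 library gave 2 to 6 for THC vs BC, 0 to 2 for TLC vs LC, 3 to 5 for THC vs LC, 5 to 6 for THC vs TBC, 0 to 2 for THC vs TLC, 6 to 7 for TLC vs TBC and 0 to 1 for the midpoint contrast. Such fits leave 1 population with a single library, assumed to vary like the others, and fewer degrees of freedom. Over all genes THC vs TLC called 318, but 1143 without a filter and 0 without TLC replicate 2, and TBC vs BC called 0, but 398 without a filter, 207 with DESeq2, 33 with the block and 148 without TBC replicate 1. THC vs BC called 1524 genes, but 2800 with the block and 280 without BC replicate 2. The lowest count of any of the 8 genes in a library was 22, which limits the precision of the lowest levels.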
